A study of Rattus norvegicus with 6 samples.

Results

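Complement is the part of innate immunity that tags microbes and damaged cells through a cascade of plasma proteins. The 7 complement genes described here were taken by symbol from a fixed list: C3, C1r, C1s, Serping1, C1qb, C1qc and Cd55. All probe sets were used whose platform annotation names exactly 1 gene, that gene being on the list by its current or older symbol, which gave 12 of the 8740 probe sets of the array, or 7 of the 4736 genes named this way. Of the 12 probe sets, 8 of 6 genes were bright enough to be tested, and both probe sets of Cd55 and 2 of the 3 probe sets of C1qc were not.

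The arrays come from primary cultures of ventricular cardiac fibroblasts of Sprague-Dawley rats aged 1 to 2 days, grown on 6-well plates. In the first group, 3 samples were treated with pertussis toxin (PTX) for 24 h; in the second, 3 control samples received water. PTX, made by Bordetella pertussis, blocks signalling from receptors to Gi and Go proteins by modifying their alpha subunits. The PTX dose is not stated in the labels. No genotype or transgene is given either. Nothing in the labels tells separate cell preparations from repeat dishes of 1 preparation, so the p-values speak to the scatter between these dishes, which could be technical.

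In the classical pathway, C1q recognises its target, and the attached proteases C1r and C1s then start the cascade that cleaves C3, its central component. Serping1 encodes C1 inhibitor, which blocks C1r and C1s, and Cd55 encodes decay-accelerating factor, a membrane protein that breaks up the enzymes that cleave C3. Hepatocytes make most plasma complement, fibroblasts also make C3, C1r, C1s and C1 inhibitor, and the C1q chains come largely from macrophages and related myeloid cells. In the rat annotation C1r and C1s are neighbours, as are C1qb, C1qc and C1qa.

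The bases before the annotated start of C3 and C1r, from the genes with higher signals, and of C1qb, from the chains that lacked them, are shown so that the sequences can be read beside the values. RefSeq promoters of the rat assembly GRCr8 matched 4 of the 7 genes (C3, C1r, C1qb and Cd55), and the 250 bases before the start are given 5′ to 3′ on the strand of the gene, with motif matches in capitals. C3 lies at chr9:2201340-2201589 on the minus strand, C1r at chr4:159098763-159099012 on the plus strand, and C1qb at chr5:154407828-154408077 on the minus strand.
C3: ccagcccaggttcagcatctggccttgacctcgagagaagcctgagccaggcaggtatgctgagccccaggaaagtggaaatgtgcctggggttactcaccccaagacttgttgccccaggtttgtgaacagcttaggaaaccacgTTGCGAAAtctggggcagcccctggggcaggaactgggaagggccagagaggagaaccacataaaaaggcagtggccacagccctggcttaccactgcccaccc
C1r: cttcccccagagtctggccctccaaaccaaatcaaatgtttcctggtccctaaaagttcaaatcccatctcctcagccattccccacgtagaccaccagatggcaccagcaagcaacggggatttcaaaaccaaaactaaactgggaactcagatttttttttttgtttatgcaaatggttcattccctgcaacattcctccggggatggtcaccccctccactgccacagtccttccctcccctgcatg
C1qb: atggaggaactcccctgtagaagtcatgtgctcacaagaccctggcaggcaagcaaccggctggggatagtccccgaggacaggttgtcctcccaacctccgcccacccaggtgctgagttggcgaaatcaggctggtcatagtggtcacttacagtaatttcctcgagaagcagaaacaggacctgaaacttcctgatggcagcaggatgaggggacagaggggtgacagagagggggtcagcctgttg

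Both strands of these windows were searched for 5 motifs. The C/EBP motif TTGCGNAA was found once, on the plus strand of the C3 window, from 104 to 97 bases before the start. It occurs in the same window of 0.729% of the 33469 promoters in the table. No match was found in any of the 4 promoters for NF-kB (GGAANTTCC, 0.669% of all promoters), STAT (TTCNNNGAA, 7.67%), the interferon-stimulated response element (GAAANNGAA, 8.12%) or PU.1 (GAGGAAGT, 2.04%), which says only that these letters are not in the windows. C/EBP proteins are transcription factors of the acute phase response; the match is a description of the sequence and was not tied to any measurement here.

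Signals are linear intensities from the Affymetrix software GCOS, and the array medians ran from 63.1 to 68.85. Control replicate 1 stood apart, with a Pearson correlation of 0.952 to 0.960 to each other array across probe sets on the log2 scale, against 0.978 to 0.985 among the other 5. Results that rest on it are therefore given with and without it. The cultures held signal of both fibroblast markers, with 13 of 13 genes bright enough to be tested, and cardiomyocyte markers, with 13 of 14. The summed signal of the cardiomyocyte markers was 251985 to 284284 in PTX cultures and 292430 to 364346 in control cultures, and the part of this in the complement results was not tested. Fibroblast markers summed to 88969 to 93155 with PTX and 84732 to 101177 in controls, and the 3 tested endothelial markers of 5 to 125.7 to 219.5 with PTX and 137 to 274.7 in controls. At an unadjusted p under 0.05 in limma, 4 of the 13 fibroblast markers were higher with PTX, against 7.97% of all tested probe sets. In the other direction 1 of the 13 was lower, against 4.61%. Lumican (Lum) had a log2 change of 1.10 (adjusted p = 0.236), periostin (Postn) 1.07 (0.274) and Thy1, a surface marker of fibroblasts, -0.97 (0.0743), each without overlap. Pdgfra (0.36) also lay wholly higher with PTX, and Col1a1 (-0.37) and Vim (-0.26) wholly lower. That made 3 of the 13 in each direction, where 12.0% of all tested probe sets lay wholly higher and 10.6% wholly lower. Of the 13 log2 changes, 7 were positive and 6 negative, with a median of 0.06. Without control replicate 1, Lum was called higher (0.00662) and Thy1 lower (0.00791), while Postn was not called (0.0929). The part of these differences in the complement signals was not tested. Postn is read by rc_AA894092_at, of the rc_AA892, rc_AA893 and rc_AA894 name series. On control replicate 1 the tested probe sets of that series had a median log2 deviation of -0.35 from their mean over the 6 arrays. Of 6 hepatocyte markers, Hp alone was tested, with 141, 128 and 178 in PTX cultures and 61.2, 76.3 and 82.9 in control cultures (log2 change 0.88, limma adjusted p = 0.204), and Alb, Apoa1, Fgb, Serpina1 and Ttr were below the filter. In such cultures, fewer cells of a type and less RNA per cell cannot be told apart.

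**Figure D1:**
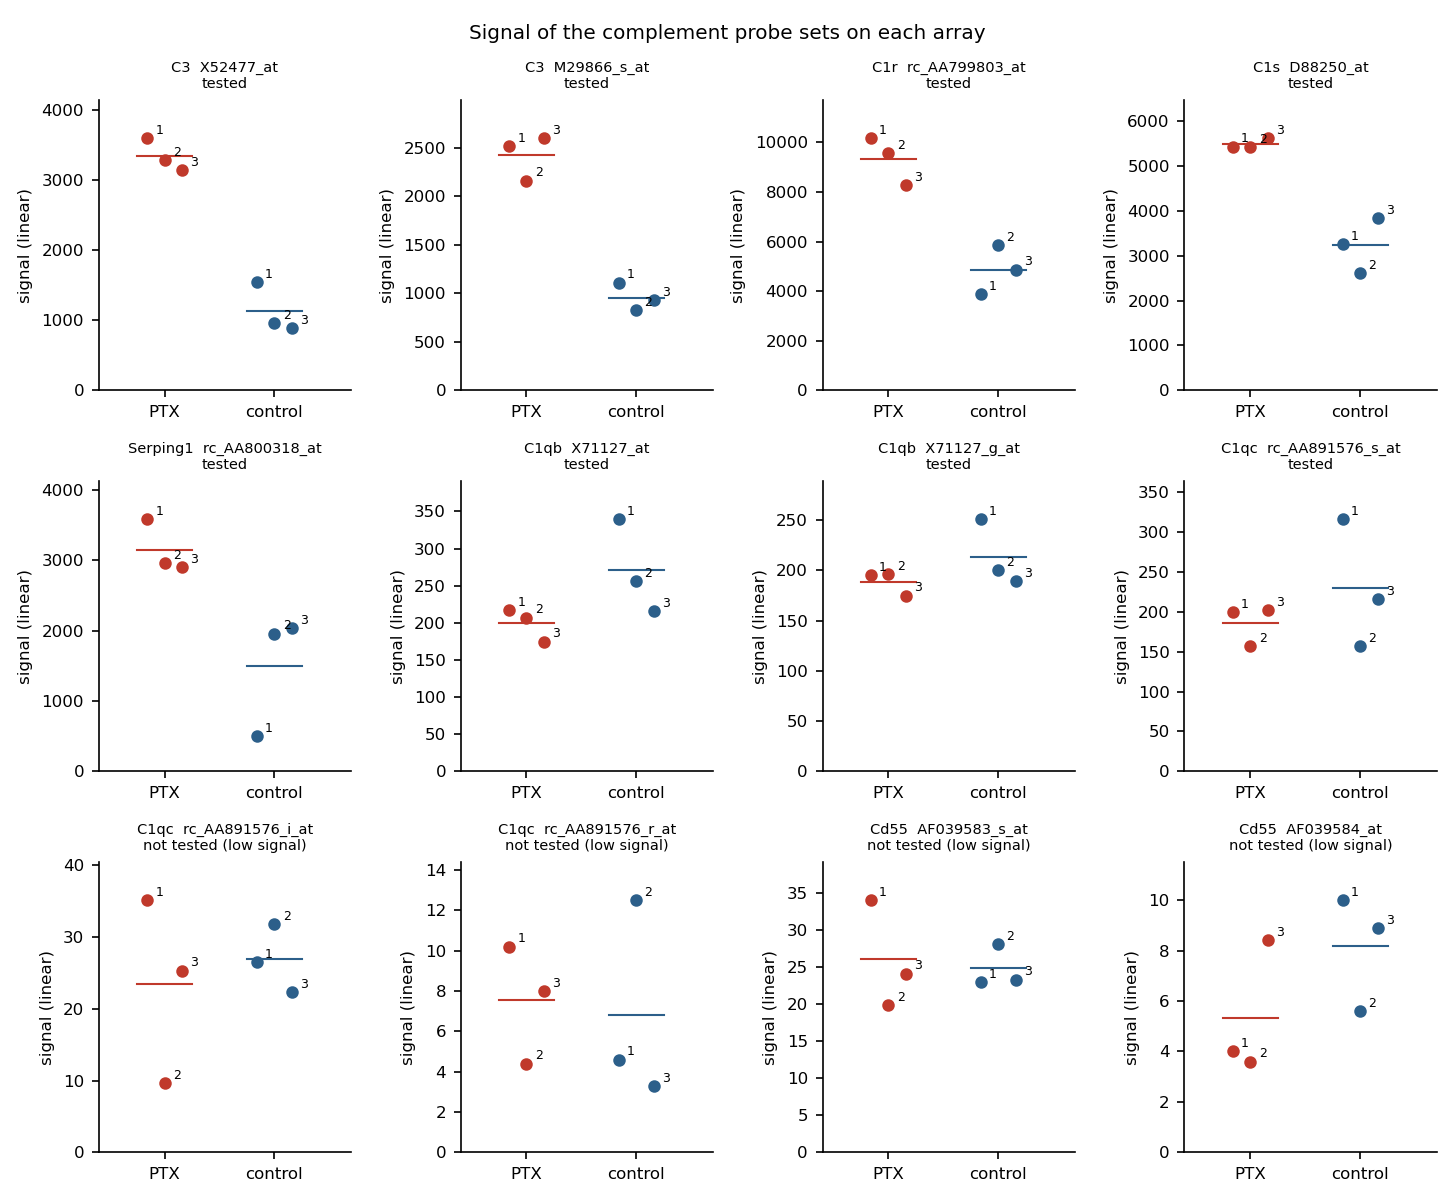
Linear signal (vertical axis, a separate scale for each panel starting at 0) of the 12 complement probe sets on each array, PTX left and control right. Points carry the replicate number and lines are group means (n = 3 each). In the panels of C3, C1r, C1s and Serping1 every PTX array lies above every control array, whereas the groups overlap for C1qb, C1qc and Cd55.

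C3, the protein on which all complement pathways converge, read higher with PTX on both of its 2 probe sets. The change passed the threshold on 1 of them and was close to it on the other. On the probe set M29866_s_at the signals were 2514, 2162 and 2599 in PTX cultures, against 1111, 823 and 927 in control cultures. The lowest PTX array stood 1.95-fold above the highest control array, so the groups did not overlap. The mean was 2425 ± 232 with PTX and 954 ± 146 in controls (SD, n = 3 each), a log2 change of 1.34 ± 0.15 (SE), or 2.53-fold, on the log2(signal + 16) scale, with a limma adjusted p of 0.0429. The second probe set, X52477_at, read 3605, 3288 and 3154 in PTX cultures, against 1553, 964 and 886 in control cultures. Its lowest PTX array stood 2.03-fold above its highest control array. It had the larger change, 1.59 ± 0.21, but the control arrays varied more, with a coefficient of variation of 32.2% against 15.3% on M29866_s_at, and limma gave an adjusted p of 0.0579.

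On X52477_at it was control replicate 1 that was high among the controls. Without that array the log2 change was 1.84 with a 95% confidence interval of 1.60 to 2.07 on this probe set and 1.45, from 1.19 to 1.71, on M29866_s_at, with limma adjusted p of 1.73e-05 and 0.000191. The call on M29866_s_at was lost when control replicate 2 (adjusted p = 0.116) or PTX replicate 1 (0.332), 2 (0.233) or 3 (0.300) was left out, while the log2 change stayed between 1.24 and 1.42. It was also lost with a pseudocount of 1 (limma adjusted p = 0.0527), with quantile normalization (0.0581) and without a trend in the variance model (0.0720).

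Of the 8 tested complement probe sets, C3 M29866_s_at was thus the 1 called higher, and 0 were called lower; over all 5244 tested probe sets 0.0763% were called higher. At an unadjusted p under 0.05, 5 of the 8 were higher, against 7.97% of all tested probe sets, and 0 were lower, against 4.61%. The groups did not overlap for the same 5, all with PTX above control, against 12.0% of all probe sets in that direction and 10.6% in the other. These 5 were the 2 probe sets of C3 and those of C1r, C1s and Serping1. Their lowest signal on any array was 506, far above the signal of 33.3 at which the filter on low values was set, so they did not enter the test through the PTX arrays alone. The median log2 change over the 8 was 0.87, against -0.02 over all tested probe sets. The complement genes were chosen with earlier results of these data known, so these comparisons describe the list and carry no test.

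C1r and C1s encode the paired proteases of the first complement component. C1s, on the probe set D88250_at, had signals of 5423, 5419 and 5612 in PTX cultures, against 3251, 2618 and 3831 in control cultures. The PTX arrays lay close together, with a coefficient of variation of 2.02%, and the lowest was 1.41-fold above the highest control array. Its mean was 5485 ± 111 with PTX and 3233 ± 606 in controls (SD, n = 3 each), and the log2 change of 0.78 ± 0.15 (SE) had an unadjusted p of 0.00104 in limma and did not pass after adjustment (0.184). Control replicate 1 was the middle one of its 3 controls, and the change was 0.79 without that array (95% confidence interval 0.47 to 1.11, adjusted p = 0.0221).

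C1r, on the probe set rc_AA799803_at, had signals of 10169, 9579 and 8278 in PTX cultures, against 3868, 5856 and 4869 in control cultures. Again the groups did not overlap, by a factor of 1.41, and here control replicate 1 was the lowest array. The mean was 9342 ± 967 with PTX and 4864 ± 994 in controls (SD, n = 3 each), and the log2 change of 0.95 ± 0.17 (SE) did not pass in limma (adjusted p = 0.137). Without control replicate 1 the change was 0.80 (0.53 to 1.07, adjusted p = 0.00900).

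Serping1, the inhibitor of both proteases, is read by the probe set rc_AA800318_at. Its signals were 3584, 2962 and 2901 in PTX cultures, against 506, 1958 and 2033 in control cultures. Control replicate 1 read 0.253 of the mean of the other 2 controls, and the lowest PTX array was 1.43-fold above the highest control array. The log2 change was 1.30 ± 0.48 (SE), with a limma adjusted p of 0.364 and a 95% confidence interval of 0.18 to 2.41. Without control replicate 1 it was 0.65, from 0.39 to 0.91, with an adjusted p of 0.0220. This array thus set both the size of the estimate and the width of its interval.

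**Figure D2:**
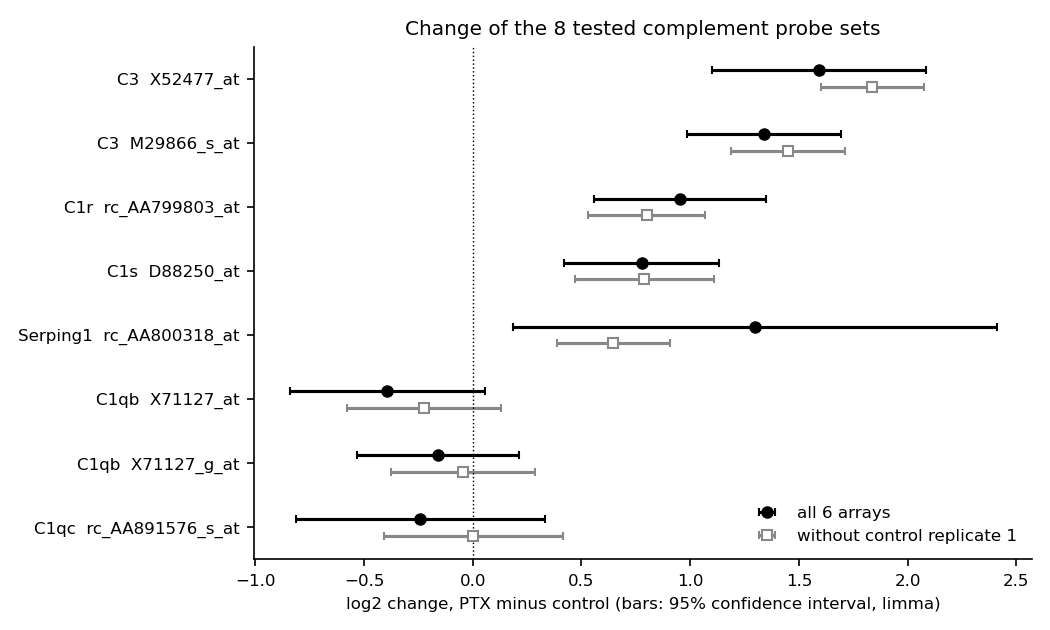
Log2 change, PTX minus control (horizontal axis), of the 8 tested probe sets, with 95% confidence intervals from limma as bars; black circles use all 6 arrays and grey squares leave out control replicate 1. The intervals of C3, C1r, C1s and Serping1 lie above 0 in both fits, and those of C1qb and C1qc include 0 in both.

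Without control replicate 1, then, 5 of the 8 probe sets passed, all higher and all of C3, C1r, C1s or Serping1; 1.85% of all probe sets were called higher in that fit. C1r and Serping1 need a further reading, because both are measured by probe sets of the rc_AA799 and rc_AA800 name series, a class that was low on control replicate 1. The 375 tested probe sets of the class had a median log2 value on control replicate 1 of 0.81 below the mean of the other controls (log2 difference -0.81). For C1r this difference was -0.46 and for Serping1 -1.95, and 65.6% of the class was lower than C1r on this measure, but 12.8% was lower than Serping1.

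The class as a whole also lay higher with PTX, with a median log2 change of 0.56, and with 46.9% of it free of overlap, PTX above control. Within the class, 87 of 375 probe sets (23.2%) had a larger change than C1r and 27 (7.20%) a larger one than Serping1. Without control replicate 1 the class median was 0.27, and 7.69% of 377 class members had a larger change than C1r and 14.3% a larger one than Serping1. When the class was centred on each array on the median of the other probe sets, the log2 change was 0.34 for C1r (95% confidence interval -0.03 to 0.70, limma adjusted p = 0.449) and 0.68 for Serping1 (0.06 to 1.30, adjusted p = 0.404). The probe sets of C1s and C3 are not in the class, and this centring leaves their values as they are. The part of this array-wide shift of the class in the signals of C1r and Serping1 was not tested further.

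**Figure D3:**
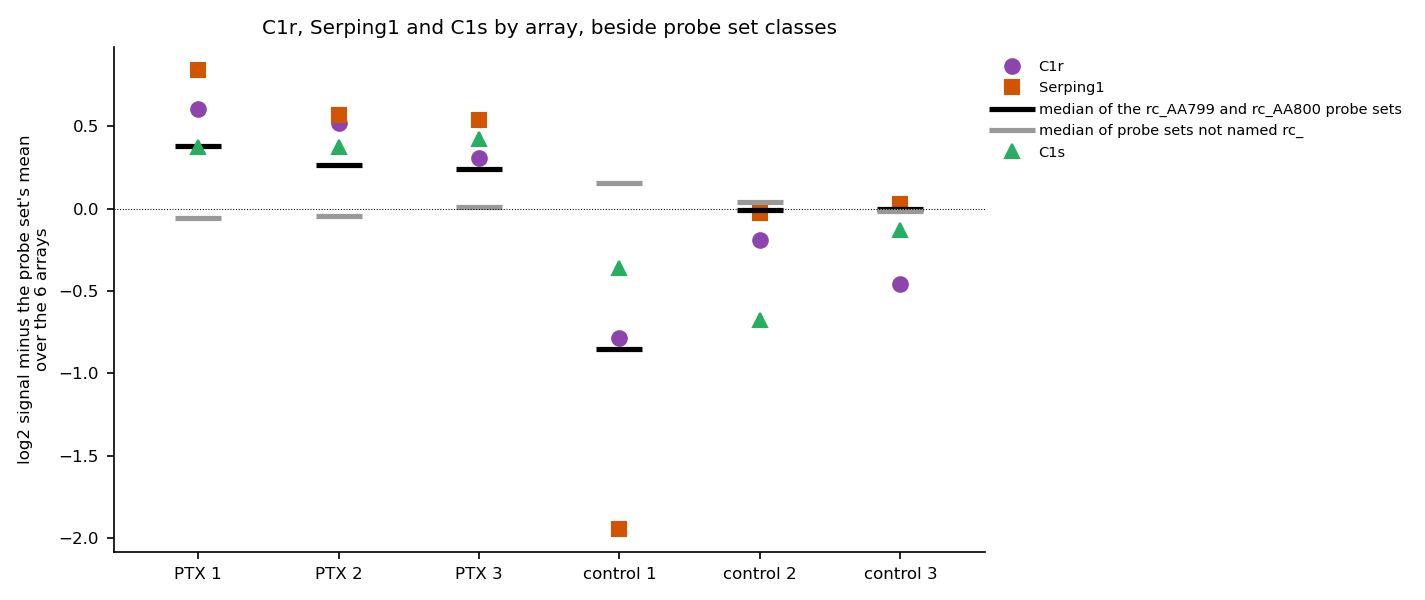
Log2 signal minus the mean of the same probe set over the 6 arrays (vertical axis) by array (horizontal axis), for C1r, Serping1 and C1s, with the medians of the rc_AA799 and rc_AA800 class and of probe sets not named rc_ as bars. On control replicate 1 the class median is at -0.85, with C1r at -0.79 and Serping1 at -1.95, whereas C1s is at -0.36 there and lowest, at -0.67, on control replicate 2.

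Among the genes with higher signals, the shift of C3 was larger than that of C1s. Within an array, log2 C3 (X52477_at) minus log2 C1s was -0.59, -0.72 and -0.83 in PTX cultures and -1.06, -1.43 and -2.09 in control cultures, so the groups did not overlap and the difference was 0.81. C3 minus C1r differed by 0.64 between the groups, which overlapped because control replicate 1 read -1.31; without it the difference was 1.04. With the other C3 probe set, M29866_s_at, the differences were smaller, 0.56 against C1s, without overlap, and 0.38 against C1r, with overlap (0.66 and 0.65 without control replicate 1). C1r minus C1s differed by 0.18, or 0.01 without control replicate 1, with overlapping groups. These differences were chosen after the values were seen and were not tested.

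C1qb and C1qc encode chains of the recognition molecule C1q, and neither was called in either direction. C1qb on X71127_at had signals of 217, 207 and 175 in PTX cultures, against 340, 256 and 216 in control cultures. The groups overlapped only in that the highest PTX array was just above the lowest control array, and control replicate 1 was the brightest of the 6. The log2 change was -0.39 ± 0.19 (SE), with a 95% confidence interval of -0.84 to 0.05 and a limma adjusted p of 0.438. It was -0.23 (-0.58 to 0.13) without control replicate 1. The other C1qb probe set, X71127_g_at, read 195, 196 and 175 with PTX and 251, 200 and 190 in controls, a log2 change of -0.16 (-0.53 to 0.21) with overlapping groups, or -0.05 without control replicate 1.

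C1qc on rc_AA891576_s_at had signals of 199, 157 and 202 in PTX cultures, against 316, 157 and 216 in control cultures. The groups overlapped: control replicates 1 and 3 lay above every PTX array, control replicate 1 being the highest, and control replicate 2 read about as low as the lowest PTX array. The log2 change was -0.24 (95% confidence interval -0.81 to 0.33, limma adjusted p = 0.667), and 0.0021 (-0.41 to 0.41) without that array. Of the 3 tested C1q probe sets, 0 had an unadjusted p under 0.05 in either direction in limma. The other probe sets of C1qc read 35.1, 9.7 and 25.3 with PTX and 26.5, 31.8 and 22.3 in controls (rc_AA891576_i_at), and 4.4 to 10.2 with PTX and 3.3 to 12.5 in controls (rc_AA891576_r_at). Both had mean log2 signals below the filter, so C1qc rests on 1 probe set.

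The proteases and C3 were then set against the C1q chains within each array, which removes any factor that scales a whole array. Log2 C3 minus log2 C1qb was 3.96, 3.89 and 4.05 in PTX cultures, against 2.14, 1.85 and 1.96 in control cultures. The size of such a difference depends on the 2 probe sets, and only its shift between groups can be read, here 1.98. The shift was 1.83 for C3 against C1qc, 1.35 and 1.19 for C1r against C1qb and C1qc, and 1.17 and 1.02 for C1s against C1qb and C1qc. For all 6 pairs the groups did not overlap, PTX being higher. The exact permutation test, two-sided, gave p = 0.1 for each of the 6, also after Benjamini-Hochberg adjustment, which is the smallest p that this test allows with 3 arrays against 3, so the permutation test cannot reach 0.05 here. Without control replicate 1 the shifts were 2.06 and 1.84 for C3, 1.03 and 0.80 for C1r, and 1.02 and 0.79 for C1s. The pairs share probe sets, so these are not 6 separate results. The signals of C3, C1r and C1s already did not overlap by themselves. The lack of overlap in the pairs therefore restates the changes given above and adds no separate support. C1r is read by a probe set of the rc_AA799 and rc_AA800 class, and the subtraction does not remove the shift of that class. With the class centred, the log2 change of C1r itself was 0.34 rather than 0.95.

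**Figure D4:**
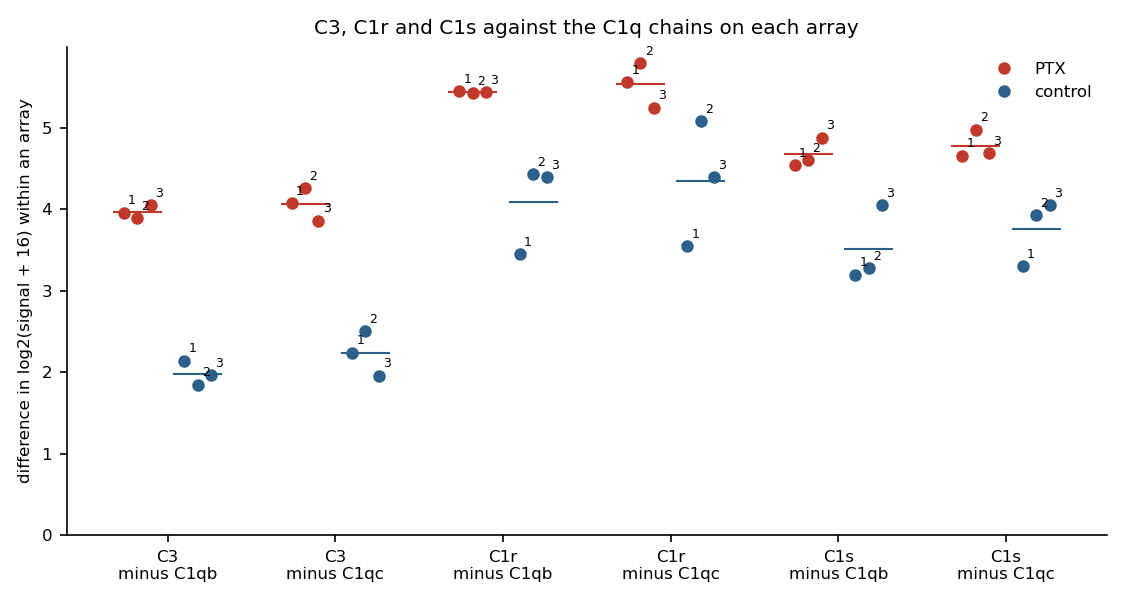
Difference in log2(signal + 16) within an array (vertical axis) between C3, C1r or C1s and each C1q chain, with PTX points left of control points, replicate numbers beside them and lines at the group means (n = 3 each). The PTX points lie above the control points in all 6 pairs, with shifts of 1.98 for C3 minus C1qb to 1.02 for C1s minus C1qc. The C1r probe set is of the rc_AA799 and rc_AA800 class, which was low on control replicate 1.

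Macrophages are the usual source of C1q, so their markers were read on the same arrays. Of 9 listed macrophage and leukocyte genes on the array 5 were tested, with a median log2 change of 0.20 (0.40 without control replicate 1). Both medians were the change of Aif1 alone, the dimmest of the 5. It read 33.3 to 51.9 with PTX and 27.6 to 51.7 in controls, with overlapping groups. Its limma interval was -0.45 to 0.85, or -0.26 to 1.07 without control replicate 1, so the medians do not show a shift of the list. The summed signal of the 5 genes was 4219 to 5404 in PTX cultures and 3117 to 3529 in control cultures. With all arrays 0 of the 5 passed in limma, where 0.0763% of all tested probe sets were called higher. At an unadjusted p under 0.05, 2 of the 5 were higher, against 7.97% of all tested probe sets. Without control replicate 1, Fcgr2b passed, and 1.85% of all probe sets were called higher in that fit. Fcgr2b, an Fc receptor for immunoglobulin G, read 596, 592 and 648 with PTX and 323, 298 and 354 in controls (log2 change 0.88, adjusted p = 0.0876, or 0.00791 without control replicate 1), and Lyz2, lysozyme of myeloid cells, 3276, 4150 and 2908 with PTX and 2139, 2517 and 2487 in controls (0.52, adjusted p = 0.303, or 0.158 without control replicate 1). The other 3, Cd14, Ctss and Aif1, had log2 changes of 0.15, 0.02 and 0.20. Lyz2 is read by rc_AA892775_at, of the same rc_AA892, rc_AA893 and rc_AA894 name series as Postn. Of the 420 tested probe sets in that series, 79.0% shifted upward with PTX, and the middle value of all their log2 shifts was 0.29. Lyz2 was also the brightest of the 5 genes, with means of 3445 with PTX and 2381 in controls, so the summed signal mostly follows it. The part of the series in the Lyz2 signals was not tested. The remaining listed genes, Ptprc, Csf1r, Itgam and Cd74, were below the filter, with no signal above 29.2 on a PTX array or 62.1 on a control array. The part of macrophages and leukocytes in the complement signals was not tested.

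Cd55 gave no usable reading. On AF039583_s_at the signals were 34.0, 19.9 and 24.1 in PTX cultures, against 23.0, 28.1 and 23.3 in control cultures, and on AF039584_at they were 4.0, 3.6 and 8.4 in PTX cultures, against 10.0, 5.6 and 8.9 in control cultures. Both probe sets fell below the filter and were not tested, and the groups overlapped on each.

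Of 52 other complement genes listed, 19 were on the array and 9 were tested, and 0 of these were called in either direction in limma, with 0 at an unadjusted p under 0.05. Their median log2 change was -0.04, against -0.02 over all tested probe sets, with 4 positive and 5 negative. Several regulators of complement are on this list. Clu, which encodes clusterin, an inhibitor of the terminal pathway, had 11926, 12313 and 11632 in PTX cultures, against 16350, 12425 and 11164 in control cultures (log2 change -0.14, 95% confidence interval -0.49 to 0.22). Cd59b, a membrane inhibitor of the terminal complex, had 3279, 3045 and 2987 with PTX and 2947, 2816 and 2923 in controls, which did not overlap but differed by a log2 change of 0.10 (-0.16 to 0.35). Cr1l, the rodent membrane regulator of C3 cleavage, had -0.04 (-0.36 to 0.29) on its brighter probe set and 0.18 (-0.36 to 0.72) on the other; without control replicate 1 the second probe set had 0.44 (0.15 to 0.73), with a limma adjusted p of 0.139.

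The other tested genes include members of the alternative and lectin pathways. Cfd, the protease factor D of the alternative pathway, had a log2 change of 0.07 (-0.56 to 0.69), Cfp, which encodes properdin, -0.40 (-1.36 to 0.55), and Masp1, a protease of the lectin pathway, 0.02 (-0.57 to 0.61). C5ar1, the receptor of the anaphylatoxin C5a, had 0.04 and 0.00 on its 2 tested probe sets. C1qbp, a mitochondrial protein that can bind C1q, read 2057, 2006 and 1928 with PTX and 2476, 2199 and 2265 in controls, without overlap, and a log2 change of -0.21 (-0.48 to 0.06). Thbd, thrombomodulin, had -0.14 (-0.56 to 0.27). The remaining 10 genes (C3ar1, C4bpa, C4bpb, C8b, C9, Cd46, Itgam, Mbl1, Mbl2 and Vtn) were below the filter on every probe set, with no single signal above 74.6.

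**Figure D5:**
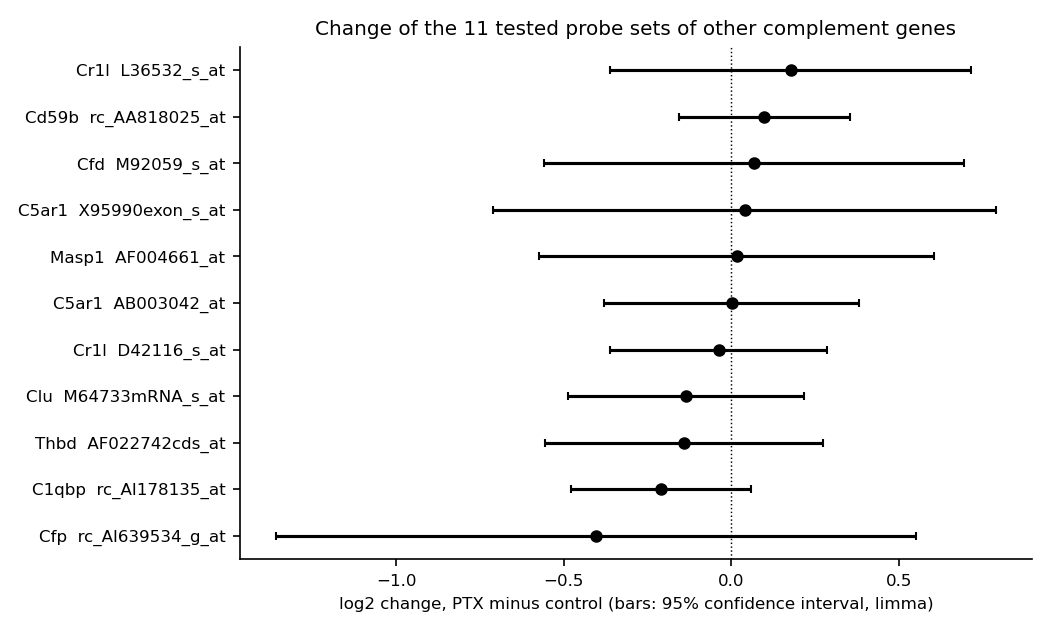
Log2 change, PTX minus control (horizontal axis), of the 11 tested probe sets of 9 other complement genes, with 95% confidence intervals from limma as bars. All 11 intervals include 0, from Cfp at -0.40 to the second Cr1l probe set at 0.18.

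The genes whose pattern over the 6 arrays was most like that of C3 (X52477_at) by Pearson correlation of log2 signals were Pla2g2a, Mrps14, Plpp1, Rph3al and Reg3b, with r from 0.978 to 0.992. Most like C1qb (X71127_at) were Rara, Tmem214, Fmc1, Pebp1 and Prkar1a, with r from 0.990 to 0.995. The 6 points are the same arrays for every gene and fall into 2 groups, so these values describe likeness and carry no test. Of the 10 genes, Pla2g2a alone passed in limma (adjusted p = 0.0217), with signals of 5022, 4808 and 4531 with PTX and 549, 148 and 206 in controls. Like C3, it was highest among controls on control replicate 1. The 5 genes alike to C1qb all had negative log2 changes, from -0.18 to -0.56, with adjusted p of 0.409 to 0.561.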

How the data were processed

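The samples were 3 PTX and 3 control cultures, grouped by their titles, each on a 1-colour Affymetrix array. The deposited files hold a linear intensity for each probe set, made by the authors with GCOS, per the submitters' processing notes. The GCOS version and target and the detection calls are unknown here. The 2% trimmed mean was 493 to 495 on every array, so no scaling was added.

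Genes were named from the platform annotation, updated through Entrez identifiers with RefSeq (GRCr8) for 6985 of 7006 probe sets with 1 symbol; 308 have several and 1426 none. Values were analysed as log2(signal + 16), which understates changes of low signals. Probe sets under the 40th percentile of mean log2 signal were left out, leaving 5244. PTX was compared with control by limma 3.58.1 in R 4.3.3 (lmFit, eBayes with trend), two-sided, adjusted by Benjamini-Hochberg over all 5244, threshold 0.05. The fit was tested on simulated data with independent noise, which held no outlying array and no shift of a name series. Intervals are limma's at 95%. Precision is limited by the small number of arrays.

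The complement genes and marker lists were chosen with earlier results of these data known. All list genes could be named; for likeness, the 5 highest correlations. Gene lists use each gene's brightest probe set. Alternatives were other pseudocounts, filters, scalings, variance models, a replicate block, array weights, removal of the rc_AA799 and rc_AA800 probe sets, each array left out and, chosen after seeing the data, centring of that class.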

Additional observations from a re-analysis of the deposited data

How the results depend on the processing

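Over all alternatives that gave a value both C3 probe sets, C1r, C1s and Serping1 stayed positive and both C1qb probe sets stayed negative, with log2 changes of 1.24 to 1.45 (M29866_s_at) and 1.44 to 1.84 (X52477_at) for C3, 0.34 to 1.10 for C1r, 0.63 to 0.91 for C1s, 0.65 to 1.63 for Serping1, and -0.54 to -0.23 (X71127_at) and -0.24 to -0.05 (X71127_g_at) for C1qb. C1qc ranged from -0.47 to 0.0021 with arrays left out and turned sign without control replicate 1. The calls changed more. With all arrays 4 probe sets passed, 1 of them a complement probe set. These counts were 2 and 0 with a pseudocount of 1, 7 and 2 with 64, 2 and 0 with quantile normalization, 9 and 2 with robust variances, 81 and 4 with array quality weights, 8 and 2 without the rc_AA799 and rc_AA800 probe sets, and 7 and 2 with that class centred. They were 0 and 0 without a trend in eBayes, where limma had 405 higher probe sets at an unadjusted p under 0.05, 5 of them complement probe sets. Leaving out each array gave 0 to 115 and 0 to 5, the highest without control replicate 1. All these counts take both directions together. With array quality weights, 66 of the 81 were higher and 15 lower. Of the 115 without control replicate 1, 97 were higher and 18 lower. In the other fits every probe set that passed was higher. Without control replicate 3 the counts were 30 and 1, without control replicate 2 they were 3 and 0, and without PTX replicate 1, 2 or 3 they were 0 and 0, with 213, 253 and 223 higher in limma at an unadjusted p under 0.05. The median of the other complement genes ranged from -0.22 (without control replicate 3) to 0.071 (without control replicate 1), and that of the macrophage markers from 0.12 to 0.40; it was 0.29 with a pseudocount of 1, 0.33 with a 60th percentile filter and 0.34 with array weights. The macrophage median of 0.40 was the change of Aif1, the dimmest gene tested on that list, and the 60th percentile filter leaves Aif1 out. The cause of the other shifts was not tested. Over pseudocounts and arrays left out, the shifts against C1qb and C1qc were 1.88 to 2.06 and 1.69 to 1.97 for C3, 1.03 to 1.52 and 0.80 to 1.57 for C1r, and 1.02 to 1.44 and 0.79 to 1.16 for C1s.

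The replicate numbers did not pair the samples: deviations from the group means of same-numbered PTX and control arrays had correlations of -0.09, -0.11 and -0.01. With the number as a block, 0 probe sets passed in limma, 0 of them complement probe sets (smallest adjusted p = 0.0567, and 0.0987 for C3 M29866_s_at), with 373 higher at an unadjusted p under 0.05. Signals of Cd55, of 2 C1qc probe sets and of 10 other complement genes lay under the filter on low signals and were not tested.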
